A study of Homo sapiens with 6 samples.

Results

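Mitochondrial carriers and the protein import machinery were described in DU145 cells that overexpressed TFEB. The members were the protein-coding genes whose symbols begin with SLC25A, TIMM or TOMM followed by a number, and 51 of the 10542 listed genes met this rule. They were 33 SLC25A, 11 TIMM and 7 TOMM genes. GENCODE 29 holds 73 protein-coding genes with such symbols, and the other 22, among them TOMM40, TIMM23 and SLC25A20, were not analysed here. DU145, an established line of human prostate cancer cells, was the material throughout. The DU145-TFEB line had received a lentivirus that carried TFEB and the DU145-vector line a blank lentivirus, and both were grown as stable lines after puromycin selection. mRNA of 3 libraries per line was sequenced, and the comparison asked how the members differed between the lines. The sources used here do not say whether the 3 libraries of a line came from separate cultures, so the p-values measure only the spread between these libraries, which may be technical.

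Nearly all mitochondrial proteins are made in the cytosol. They enter through the TOM complex of the outer membrane, and are then sorted by the TIM23 complex, which takes proteins with a cleavable presequence, or by small TIM chaperones and the TIM22 complex, which insert carriers into the inner membrane. The carriers are the SLC25 proteins, which exchange nucleotides, phosphate, carboxylic and amino acids, cofactors and ions between cytosol and matrix. TFEB is a basic helix-loop-helix transcription factor known for driving genes of lysosomes and autophagy through E-box motifs.

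The table gives normalized counts, that is reads on a gene divided by a size factor of the library. TFEB had 6325, 6301 and 6036 normalized counts in DU145-TFEB, against 127, 124 and 125 under the blank vector. It was therefore 49.6-fold higher in the cells labelled as overexpressing it, with a log2 fold change of 5.62 ± 0.08 (SE, n = 3 per line) and a limma adjusted p of 3.18e-10. Between 13999961 and 16511477 reads per library lay on the listed genes, and every member had at least 7 reads in every library. The epithelial keratins KRT8, KRT18 and KRT19 were detected in all 6 libraries, with 14615 to 28109 normalized counts for KRT8, and were lower in DU145-TFEB, at log2 fold changes of -0.68, -0.78 and -0.38. A list of 12 mRNAs encoded by mitochondrial DNA was read, which left out MT-ND4L. All 12 were higher in DU145-TFEB and together held 4.41% to 5.42% of the normalized counts there, against 2.88% to 3.06% in DU145-vector.

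Every listed gene carried a deposited adjusted p-value below 0.05, so the table itself is a selection made on these libraries. All 51 members had a limma adjusted p below 0.05, as had 100% of all listed genes, and a member could hardly have been listed otherwise. The counts and medians below are therefore descriptions of the listed genes. Of the members, 33 were higher and 18 were lower in DU145-TFEB, while 47.6% of all listed genes were higher and 52.4% were lower. The median log2 fold change was 0.38 over the members and -0.36 over all listed genes, and 35 of 51 members lay above the latter value. By name, the medians were 0.39 for SLC25A, 0.46 for TIMM and 0.36 for TOMM genes. In 50 of 51 members the libraries of the lines did not overlap, which was so for 99.3% of the listed genes. The exception was SLC25A10, the dicarboxylate carrier, with 146, 212 and 159 normalized counts in DU145-TFEB and 147, 110 and 107 in DU145-vector. Values are relative to the library, so more mRNA of a gene per cell cannot be told apart from less mRNA of other genes, nor a change per cell from a change in which cells were present.

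Changes of the members were mostly moderate. A log2 fold change above 1 was reached by 5 members, SLC25A27, SLC25A45, TOMM7, SLC25A42 and SLC25A41, which is 9.80% of them beside 8.41% of the listed genes. Below -1 lay TOMM5, SLC25A36, SLC25A24, SLC25A30 and SLC25A46, again 9.80%, beside 31.1% of the listed genes. The study used a cutoff of 1.5 with DESeq2. At this cutoff on the limma values given here, SLC25A27 alone was higher, which is 1.96% of the members beside 2.54% of the listed genes. TOMM5, SLC25A36 and SLC25A24 were lower at this cutoff, 5.88% beside 16.5%. With DESeq2 on recovered reads 2 members were higher and 1 was lower at it. Without DU145-TFEB replicate 2 the members below -1.5 were 1 in place of 3, and without DU145-vector replicate 2 those above 1 were 3 in place of 5. The size of the change was 0.62 at the median on the log2 scale, regardless of sign, against 0.83 over all listed genes.

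**Figure D1:**
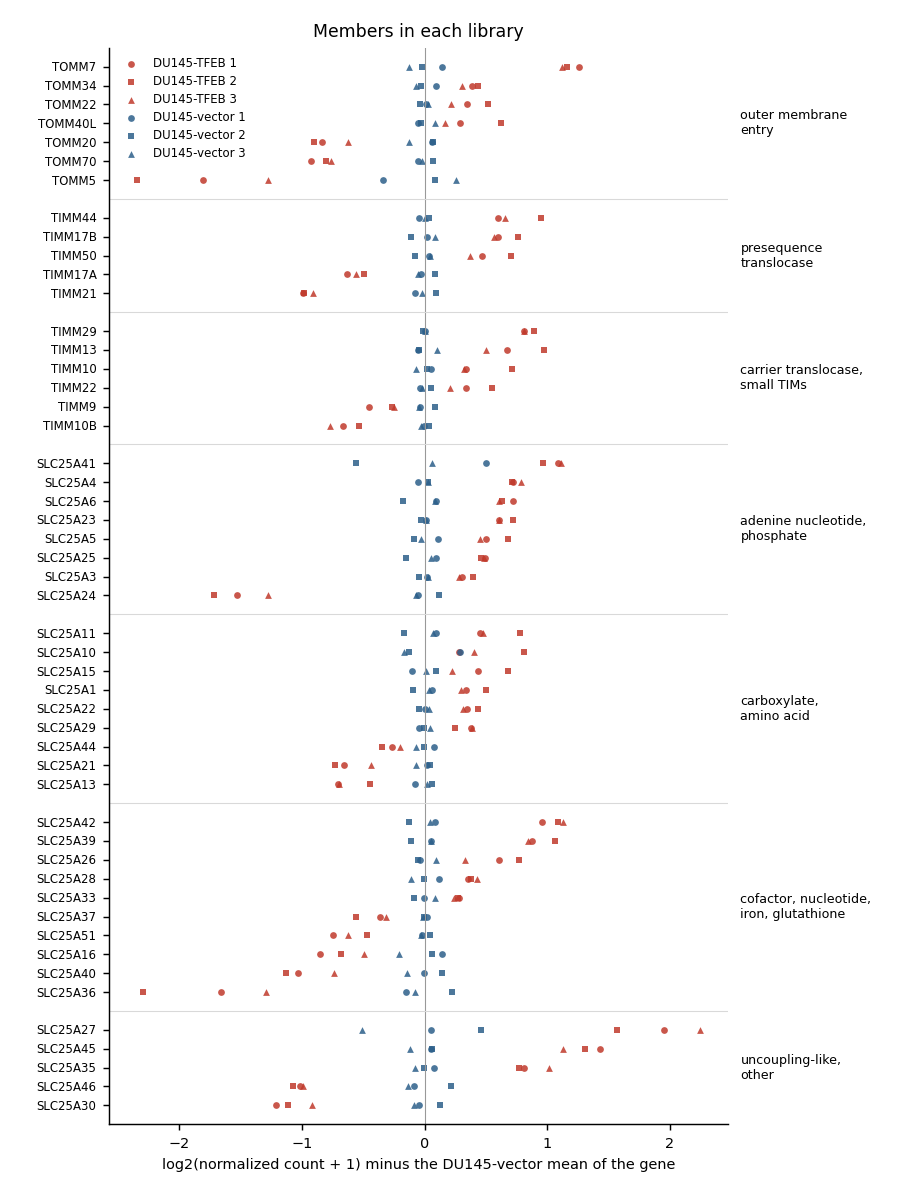
Each of the 50 rows is a member and each point a library, plotted as log2(normalized count + 1) minus the mean of the 3 DU145-vector libraries of that gene (x axis, log2 units), in red for DU145-TFEB and blue for DU145-vector, with the replicate number as the marker shape. The red points lie apart from the blue ones in 49 of 50 rows, the exception being SLC25A10.

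Spread between libraries of a line was small beside most of these changes. The coefficient of variation had a median of 8.63% over the members in DU145-TFEB and of 6.02% in DU145-vector. It was widest for TOMM5 in DU145-TFEB, at 37.6%, and for SLC25A41 in DU145-vector, at 37.5%, which are members with few reads. DU145-TFEB replicate 2 was the highest of its line for 25 of 51 members and the lowest for 15, replicate 1 the highest for 5 and the lowest for 13, and replicate 3 the highest for 21 and the lowest for 23.

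Direction followed the GC content of the gene. GC content was taken over the longest transcript of each gene in GENCODE 29, which need not be its main mRNA. The listed genes were cut by it into 5 bins of near-equal size. In the lowest bin, from 26.5% to 40.2% GC, 5 of 5 members were lower in DU145-TFEB, with a median log2 fold change of -1.03 beside -1.38 for the 2108 listed genes there. The next bin held 2 higher and 8 lower members, and the middle bin 7 higher and 5 lower. In the next bin 11 of 11 members were higher, with a median of 0.46 beside 0.54 for the listed genes. In the highest bin, from 58.5% to 74.2% GC, 13 of 13 members were higher, with a median of 0.73 beside 0.66. Across the 51 members Spearman's rho between GC content and log2 fold change was 0.71, and across 10537 listed genes it was 0.74. Members and listed genes come from the same 6 libraries, and this is given as a description.

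**Figure D2:**
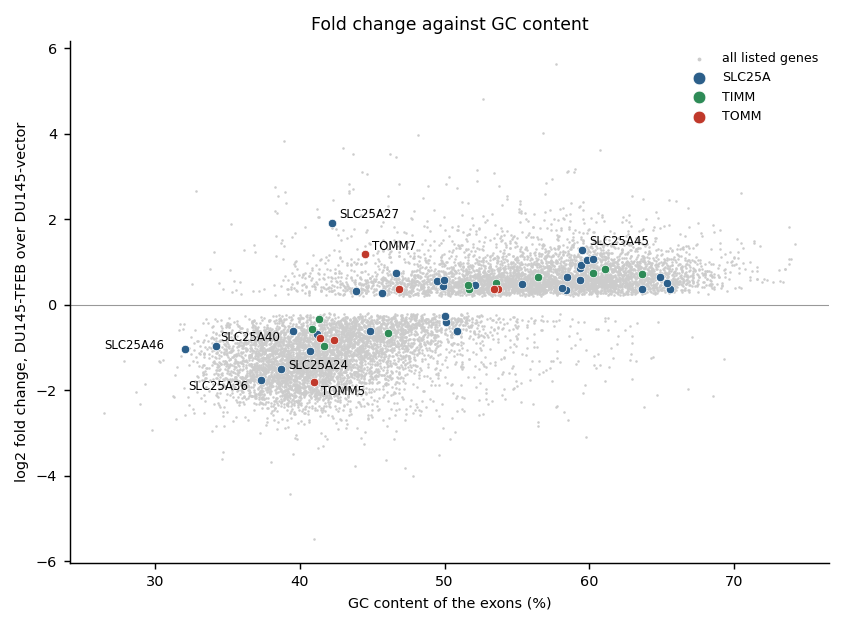
Log2 fold change of DU145-TFEB over DU145-vector (y axis) against GC content in percent (x axis). GC content is that of the longest transcript of a gene, which the axis names as its exons. All listed genes are in grey and the SLC25A, TIMM and TOMM members in blue, green and red. Listed genes leave a gap around 0 because of the selection of the table, and no member above 51.4% GC lies below 0. SLC25A27 and TOMM7 stand above most genes of their GC content.

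Because GC content moved with the result, each fold change was also computed after the trend with GC content and gene length had been removed from every library by loess. The median of all listed genes was then -0.32, and that of the members -0.20. Under this alternative 15 members were higher and 36 lower, of which 8 and 27 had an adjusted p below 0.05 (limma). The higher members were thus 29.4% of 51, beside 27.9% of the 10537 listed genes with a GC content, and 31 of 51 members lay above the median of the listed genes. A total of 26 members changed sign. The trend-removed value is given below beside each member whose direction or call it changed, and it is to be read against -0.32. Whether GC content had a part in the differences at the bench or in the cells was not tested.

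**Figure D3:**
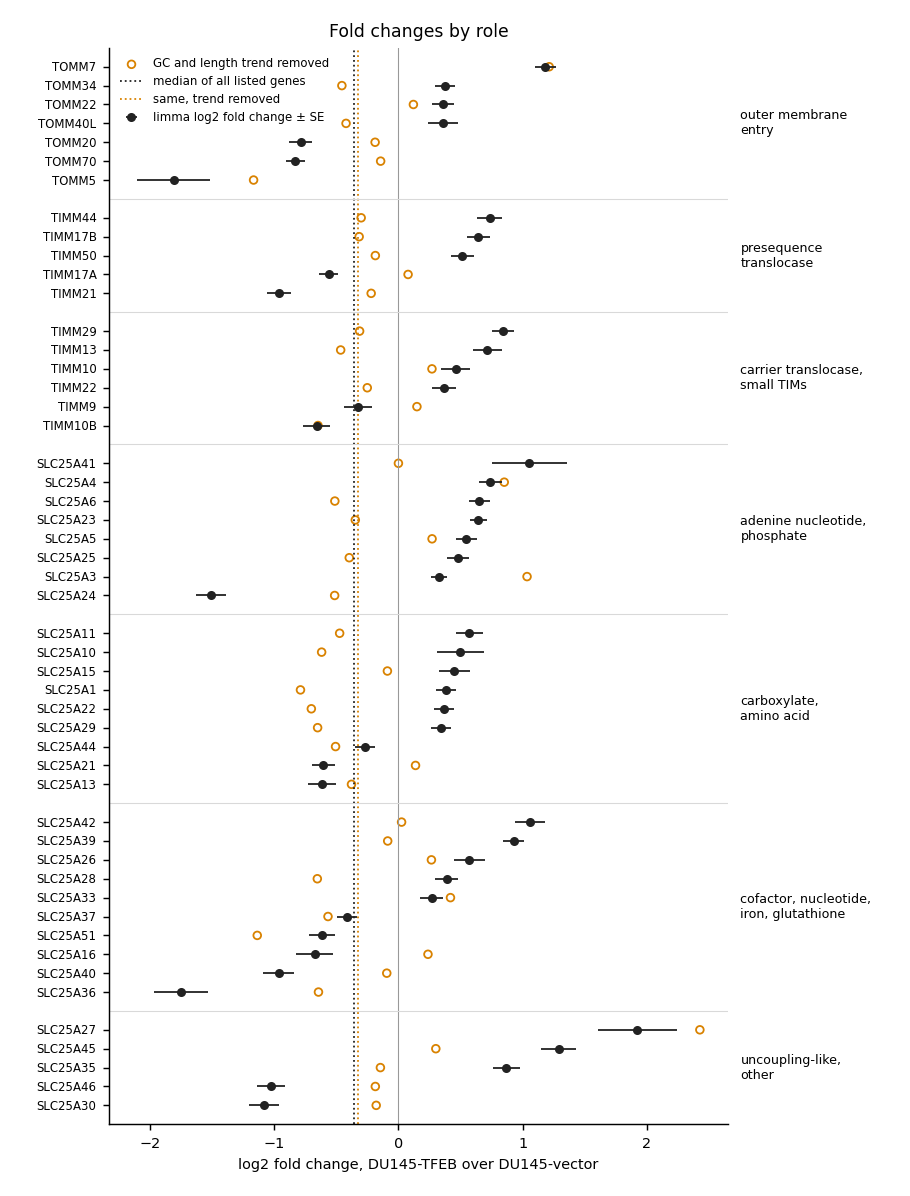
Log2 fold change of DU145-TFEB over DU145-vector (x axis) for 50 members, grouped by role. Black points are limma values with their SE (n = 3 per line), open orange circles the values with the GC and length trend removed, and dotted lines the medians of all listed genes, at -0.36 and -0.32. Higher members such as SLC25A39 and TIMM44 move toward or past 0 on removal of the trend, whereas TOMM7, SLC25A27, SLC25A4 and SLC25A3 do not. The removal used the GC content of the longest transcript, which need not be the main mRNA, and the listed gene length.

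TFEB binds E-box motifs, so the promoters of the members were read for the letters CACGTG and for TCACGTGA, the longer form that contains it. Both are their own reverse complement, so a search of the given strand covers both strands. RefSeq windows from 250 bases before to 50 bases after the gene start (GRCh38.p14) were matched for 44 of 51 members, with 54 windows in all because some genes have several RefSeq starts. CACGTG stood in the windows of 9 of these 44 members (20.5%), against 12.6% of the 7392 listed protein-coding genes with a window and 8.77% of all 27305 genes with one. Of all 35116 windows 7.26% held it. TCACGTGA stood in 2 members, SLC25A36 and SLC25A51, which is 4.55%, against 2.42% of the listed protein-coding genes. The windows are shown as 30 bases each, in the direction of the gene, with the motif in capitals, because they are the members' matches to the motif of the overexpressed factor. Those of SLC25A26, SLC25A22, SLC25A46 and SLC25A51 lie at alternative starts inside the gene as listed in the table, 87329 and 87355, 2886, 812 and 155 bases from its listed start. The window of TIMM10 also lies inside the listed gene, 36 bases from its start.
SLC25A36 chr3:140941681-140941710 (plus strand): gcccgtagggaTCACGTGAaagaacactgc
SLC25A51 chr9:37904169-37904198 (minus strand): cggtgtctcccTCACGTGAccccaacagcg
SLC25A13 chr7:96322235-96322264 (minus strand): gcgcagcggggtCACGTGtccctgtccagc
SLC25A22 chr11:795418-795447 (minus strand): ctggctggggtgCACGTGagccccgagcgt
SLC25A26 chr3:66220939-66220968 (plus strand): tgtctcgcgttgCACGTGcagttgttgtgg
SLC25A26 chr3:66220965-66220994 (plus strand): gtggttctacgtCACGTGgtcccggaagtt
SLC25A33 chr1:9539427-9539456 (plus strand): tccggcccccgcCACGTGacggccgcgcgc
SLC25A46 chr5:110738948-110738977 (plus strand): agaggctataatCACGTGctccgaagactt
TIMM10 chr11:57530738-57530767 (minus strand): ccggaagtaaccCACGTGcttccgctggag
TOMM20 chr1:235128988-235129017 (minus strand): aaagtccgtggtCACGTGcaaattcccgac

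Members with the motif did not share a direction. Of the 9, 4 were higher (SLC25A22, SLC25A26, SLC25A33 and TIMM10) and 5 were lower (SLC25A13, SLC25A36, SLC25A46, SLC25A51 and TOMM20) in DU145-TFEB, with a median log2 fold change of -0.61. Both members with the longer form were lower. Of the 35 members with a window and no CACGTG, 26 were higher and 9 lower, with a median of 0.45. After removal of the GC and length trend the medians were -0.19 with the motif and -0.25 without it. A match in letters is a description of the sequence, and binding was not measured in these data.

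The outer membrane entry gate split, with 4 members higher and 3 lower in DU145-TFEB and a median log2 fold change of 0.36. Lower were TOMM20, a receptor for presequences, TOMM70, a receptor for carrier precursors, and the small subunit TOMM5. Higher were the small subunit TOMM7, the central receptor TOMM22, the channel paralogue TOMM40L and the cytosolic co-chaperone TOMM34. TOMM7 (chr7:22812628-22822852) had 3142, 2937 and 2847 normalized counts in DU145-TFEB and 1448, 1290 and 1201 in DU145-vector. It was thus 2.27-fold higher with no overlap, at a log2 fold change of 1.18 ± 0.09 (SE, n = 3 per line) and a limma adjusted p of 4.39e-06, and it stood at 1.21 with the trend removed. TOMM22 had 2818, 3158 and 2563 normalized counts against 2223, 2151 and 2260, a log2 fold change of 0.36 ± 0.09, and with the trend removed its value of 0.12 had a limma adjusted p of 0.113.

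TOMM5 (chr9:37582646-37592642) was the lowest of all 51 members. Its normalized counts were 24.2, 16.4 and 35.3 in DU145-TFEB and 68.6, 92.7 and 104 in DU145-vector, so the lines did not overlap although each library held few reads. The log2 fold change was -1.81 ± 0.29 (SE, n = 3 per line), with a limma adjusted p of 0.000287, and -1.17 with the trend removed. TOMM5 shares exon bases on its own strand with the annotated genes AL138752.2 and AL513165.2, and reads of such genes could not be told apart from its own.

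The presequence receptor TOMM20 and the carrier receptor TOMM70 moved in parallel. TOMM20 fell from a mean of 4289 ± 329 to 2489 ± 257 normalized counts (SD, n = 3), a log2 fold change of -0.79 ± 0.09. TOMM70 went from 1868 ± 80.0 to 1051 ± 61.3 normalized counts (SD, n = 3), a log2 fold change of -0.83 ± 0.08. With the trend removed they stood at -0.19 and -0.14, above the listed median of -0.32, and the value of TOMM70 had a limma adjusted p of 0.0671. TOMM20 holds one of the CACGTG windows shown above, and 4 annotated pseudogenes carry its name, to which reads could be assigned. TOMM34 and TOMM40L were higher by log2 fold changes of 0.38 ± 0.08 and 0.36 ± 0.12, and turned to -0.46 and -0.42 with the trend removed. TOMM40L lost its call without DU145-vector replicate 1, at 0.33.

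The TIM23 complex and its motor also split, with 3 members higher and 2 lower and a median of 0.51. TIMM44, which tethers the import motor, TIMM50, the presequence receptor of the complex, and TIMM17B, a channel subunit, were higher by log2 fold changes of 0.73 ± 0.10, 0.51 ± 0.09 and 0.64 ± 0.09. TIMM21 and TIMM17A were lower, at -0.96 ± 0.10 and -0.56 ± 0.08. TIMM17A and TIMM17B are alternative forms of the same subunit. TIMM17A had 1243, 1371 and 1307 normalized counts in DU145-TFEB and 1891, 2039 and 1854 in DU145-vector. TIMM17B had 1146, 1282 and 1116 against 766, 700 and 803. The log2 ratio of TIMM17A to TIMM17B was therefore 1.35 ± 0.17 in DU145-vector and 0.15 ± 0.07 in DU145-TFEB (SD, n = 3). Per kb of listed gene length TIMM17A had 549 and TIMM17B 295 normalized counts in DU145-vector, and 372 and 461 in DU145-TFEB. These orders rest on the listed lengths, 3513 and 2562 bases, which need not be those of the main mRNAs.

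GC content differed between these members too, from 40.9% for TIMM17A to 60.3% for TIMM44. With the trend removed TIMM44, TIMM50 and TIMM17B stood at -0.30, -0.19 and -0.32, that is at or above the median of the listed genes, TIMM21 at -0.22 and TIMM17A at 0.08. The distance from the highest to the lowest of the 5 went from 1.69 to 0.39 on the log2 scale.

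The carrier translocase and the small TIM chaperones had 4 higher and 2 lower members, with a median of 0.41. TIMM29 and TIMM22, subunits of the TIM22 complex, were higher by log2 fold changes of 0.84 ± 0.09 and 0.37 ± 0.10, while TIMM10B, which docks the chaperones to it, was lower at -0.66 ± 0.11. Among the chaperones TIMM13 had 1510, 1862 and 1343 normalized counts in DU145-TFEB and 913, 918 and 1014 in DU145-vector, a log2 fold change of 0.72 ± 0.12 with a limma adjusted p of 0.000324. TIMM10 had 1015, 1315 and 1005 against 833, 811 and 763, a log2 fold change of 0.46 ± 0.11 with a limma adjusted p of 0.0033. In both genes DU145-TFEB replicate 2 was the highest library, and without it the fold changes were 0.59 and 0.33.

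TIMM9 and TIMM10 form a shared hexamer, yet TIMM9 was slightly lower, at -0.32 ± 0.11 with a limma adjusted p of 0.0171. This call was among the least stable. Its value was 0.14 under quantile normalization and 0.15 with the trend removed, and its adjusted p rose above 0.05 with DESeq2, with edgeR and without DU145-TFEB replicate 1. The directions of TIMM29, TIMM22 and TIMM13 turned with the trend removed, to -0.31, -0.25 and -0.46, while TIMM10 stayed at 0.27 and TIMM10B at -0.65. Under quantile normalization TIMM10B lost its call, at -0.20.

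Of the 8 carriers of adenine nucleotides and phosphate, 7 (87.5%) were higher in DU145-TFEB, beside 47.6% of all listed genes. The median over the group was 0.59. The ADP/ATP carriers exchange matrix ATP for cytosolic ADP, and all 3 listed forms were higher. SLC25A6 had 19175, 18001 and 17676 normalized counts in DU145-TFEB and 12379, 10295 and 12346 in DU145-vector, a log2 fold change of 0.65 ± 0.08 (SE, n = 3 per line) with a limma adjusted p of 7.68e-05. SLC25A5 had 6917, 7826 and 6653 against 5267, 4588 and 4790, a log2 fold change of 0.55 ± 0.08 with a limma adjusted p of 0.000207. SLC25A4, the form typical of heart and muscle, was at 512 ± 13.5 against 306 ± 10.4 normalized counts (SD, n = 3), and its log2 fold change was 0.74 ± 0.09. The phosphate carrier SLC25A3 was higher by 0.33 ± 0.06.

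Among these carriers the trend mattered unevenly. With it removed 3 of the 8 were higher and the group median was -0.17, beside -0.32 for all listed genes. Of the 8, 4 then lay above the listed median. SLC25A4, SLC25A5 and SLC25A3, at 46.6%, 49.5% and 43.9% GC, stood at 0.85, 0.27 and 1.03 with the trend removed, while SLC25A6, at 64.9% GC, turned to -0.51. These values rest on the GC content of the longest transcripts and on the listed gene lengths. The coding sequences of SLC25A4, SLC25A5 and SLC25A3 held more GC, at 55.1%, 52.5% and 49.4%. Under quantile normalization SLC25A3 lost its call, with a log2 fold change of 0.04. Annotated pseudogenes carry the names of SLC25A5 (9) and SLC25A6 (6), so reads of these genes could have been split or shared.

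The ATP-Mg/phosphate carriers, which adjust the adenine nucleotide pool of the matrix and respond to calcium in most forms, held the sharpest contrast between relatives. SLC25A24 (chr1:108134036-108200849) had 435, 379 and 516 normalized counts in DU145-TFEB and 1210, 1362 and 1195 in DU145-vector. It was 2.83-fold lower, with a log2 fold change of -1.51 ± 0.12 (SE, n = 3 per line) and a limma adjusted p of 6e-06. SLC25A23 had 2756, 2990 and 2755 against 1830, 1780 and 1826, a log2 fold change of 0.64 ± 0.07 with a limma adjusted p of 2.2e-05. SLC25A25 had 1011, 991 and 1007 against 769, 649 and 748, a log2 fold change of 0.48 ± 0.09 with a limma adjusted p of 0.000706. None of the 3 genes had overlapping lines.

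SLC25A41, the short form of this group, was rare. Its normalized counts were 35.8, 32.8 and 36.3 in DU145-TFEB and 23.5, 10.7 and 17 in DU145-vector, a log2 fold change of 1.05 ± 0.30 with a limma adjusted p of 0.00689. Without DU145-vector replicate 2 the value was 0.77. With the GC and length trend removed it was -0.00013, SLC25A23 and SLC25A25 stood at -0.35 and -0.40, and SLC25A24 at -0.51, so that the distance from the highest to the lowest of the 4 went from 2.56 to 0.51 on the log2 scale.

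The openings of the coding sequences of SLC25A23 and SLC25A24 are shown because this pair had the largest difference in fold change among the pairs compared. They are the first 150 coding bases in GENCODE 29 (GRCh38), with G and C in capitals.
SLC25A23: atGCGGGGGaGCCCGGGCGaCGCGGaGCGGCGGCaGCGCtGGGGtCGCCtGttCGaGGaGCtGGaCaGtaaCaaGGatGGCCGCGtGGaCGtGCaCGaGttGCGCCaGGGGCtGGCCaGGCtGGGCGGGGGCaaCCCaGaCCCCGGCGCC
SLC25A24: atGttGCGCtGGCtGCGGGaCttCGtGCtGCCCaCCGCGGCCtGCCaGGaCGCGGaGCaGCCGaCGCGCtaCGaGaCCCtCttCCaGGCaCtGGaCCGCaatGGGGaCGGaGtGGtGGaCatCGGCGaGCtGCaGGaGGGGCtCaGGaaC
The openings are both rich in G and C, at 74.7% and 68.7%. Over the whole coding sequence SLC25A23 held 60.1% GC and SLC25A24 45.1%, and over the longest transcript 58.5% and 38.7%.

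Carriers of carboxylates and amino acids had 6 higher and 3 lower members, all within 0.62 of 0 on the log2 scale, and a median of 0.37. Higher were the oxoglutarate carrier SLC25A11 (0.57 ± 0.11), the dicarboxylate carrier SLC25A10 (0.50 ± 0.19), the ornithine carrier SLC25A15 (0.45 ± 0.13), the citrate carrier SLC25A1 (0.38 ± 0.08), the glutamate carrier SLC25A22 (0.37 ± 0.08) and the basic amino acid carrier SLC25A29 (0.34 ± 0.08), each as log2 fold change ± SE. Lower were the aspartate/glutamate carrier SLC25A13 at -0.62 ± 0.11, the oxodicarboxylate carrier SLC25A21 at -0.61 ± 0.09 and the branched-chain amino acid carrier SLC25A44 at -0.27 ± 0.08. The adjusted p of SLC25A44 rose above 0.05 with DESeq2, at -0.03, and under quantile normalization, at -0.081, and that of SLC25A13 under quantile normalization, at -0.17. SLC25A10, whose lines overlapped, had a limma adjusted p of 0.0263, which rose above 0.05 when DU145-TFEB replicate 2, DU145-vector replicate 2 or DU145-vector replicate 3 was left out.

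All 6 higher carriers of this group turned negative with the trend removed, between -0.79 for SLC25A1 and -0.09 for SLC25A15. SLC25A21, at 39.5% GC, turned to 0.14, and SLC25A13 and SLC25A44 stayed at -0.38 and -0.51. The median of the group was then -0.51, below the -0.32 of all listed genes.

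Carriers of cofactors, nucleotides, iron and glutathione were divided, with 6 higher and 5 lower and a median of 0.27. SLC25A39 and SLC25A40 are paralogues linked to the import of glutathione, and they moved apart. SLC25A39 had 4963, 5642 and 4839 normalized counts in DU145-TFEB and 2800, 2507 and 2809 in DU145-vector, a log2 fold change of 0.93 ± 0.08 with a limma adjusted p of 9.27e-06. SLC25A40 had 381, 356 and 466 against 775, 860 and 706, a log2 fold change of -0.96 ± 0.12 with a limma adjusted p of 7.35e-05. The 2 genes had the largest distance in GC content of all pairs compared, at 59.4% and 34.2%, and both stood at -0.09 with the trend removed. Their coding openings, chosen after the values were seen, show the distance in letters, again with G and C in capitals and over the first 150 coding bases.
SLC25A39: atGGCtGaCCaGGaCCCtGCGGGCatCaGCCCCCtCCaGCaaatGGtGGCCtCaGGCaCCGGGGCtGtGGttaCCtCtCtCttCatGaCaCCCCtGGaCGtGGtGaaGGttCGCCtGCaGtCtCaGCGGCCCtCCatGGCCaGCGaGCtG
SLC25A40: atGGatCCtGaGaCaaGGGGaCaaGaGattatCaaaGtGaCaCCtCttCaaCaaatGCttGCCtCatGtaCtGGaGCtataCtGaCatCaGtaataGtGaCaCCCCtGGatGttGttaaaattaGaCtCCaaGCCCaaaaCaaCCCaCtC
G and C made up 64.7% of the SLC25A39 stretch and 43.3% of the SLC25A40 stretch.

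The mitoferrins SLC25A28 and SLC25A37 carry iron into the matrix. SLC25A28 had 689, 702 and 726 normalized counts in DU145-TFEB and 584, 536 and 499 in DU145-vector, a log2 fold change of 0.39 ± 0.09 with a limma adjusted p of 0.00271. SLC25A37 had 2605, 2279 and 2703 against 3413, 3344 and 3323, a log2 fold change of -0.41 ± 0.08 with a limma adjusted p of 0.000752. With the trend removed they no longer differed in direction, at -0.65 and -0.57, and with DESeq2 SLC25A37 had an adjusted p above 0.05 at a value of -0.17.

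The pyrimidine nucleotide carriers SLC25A33 and SLC25A36 also moved apart. SLC25A36 (chr3:140941830-140980961) had 595, 382 and 769 normalized counts in DU145-TFEB and 1698, 2199 and 1785 in DU145-vector. It was 3.25-fold lower, at a log2 fold change of -1.75 ± 0.22 (SE, n = 3 per line) and a limma adjusted p of 5.98e-05, and it ranged from -1.98 to -1.48 when any library was left out. SLC25A33 had 610, 608 and 594 against 500, 474 and 534, a log2 fold change of 0.27 ± 0.09 with a limma adjusted p of 0.0153, and lost its call without DU145-TFEB replicate 1, at 0.26. Both hold CACGTG in the windows shown above, SLC25A36 in the longer form. This pair stayed apart with the trend removed, at 0.42 for SLC25A33 and -0.64 for SLC25A36.

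SLC25A42, a carrier of coenzyme A, had 331, 363 and 372 normalized counts in DU145-TFEB and 180, 155 and 175 in DU145-vector. It was 2.09-fold higher, at a log2 fold change of 1.06 ± 0.12 with a limma adjusted p of 3.01e-05, and stood at 0.025 with the trend removed. SLC25A16, also linked to coenzyme A, was lower at -0.67 ± 0.15 and stood at 0.24 with the trend removed. SLC25A51, the NAD+ carrier, was lower at -0.61 ± 0.10, and lay further from the listed median with the trend removed, at -1.14. The latter value rests on a GC content of 50.9% for its longest transcript, while its coding sequence held 43.7%. Under quantile normalization SLC25A51 and SLC25A16 lost their calls, at -0.18 and -0.19. SLC25A26, which carries S-adenosylmethionine, was higher by 0.57 ± 0.12 and stayed at 0.27 with the trend removed.

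The last group held carriers related to uncoupling proteins and others of less settled function, and its 5 members ranged from -1.08 to 1.92 around a median of 0.87. Of them 3 were higher and 2 were lower. SLC25A27, also called UCP4, was the member with the highest fold change and the lowest level. Its normalized counts were 43.1, 32.8 and 53 in DU145-TFEB and 10.8, 14.6 and 7 in DU145-vector, so the lines stayed apart at few reads. It was 3.98-fold higher, at a log2 fold change of 1.92 ± 0.32 (SE, n = 3 per line) with a limma adjusted p of 0.000334, and stood at 2.43 with the trend removed. A filter of 10 reads in every library removed it.

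SLC25A45 (chr11:65375192-65383701) had 257, 236 and 208 normalized counts in DU145-TFEB and 98, 98.5 and 87 in DU145-vector, a log2 fold change of 1.29 ± 0.14 with a limma adjusted p of 2.65e-05. SLC25A35 was higher by 0.87 ± 0.11. SLC25A30, a relative of the uncoupling proteins, had 201, 216 and 247 normalized counts against 453, 510 and 441, a log2 fold change of -1.08 ± 0.12 with a limma adjusted p of 2.94e-05. SLC25A46, which sits in the outer membrane and is linked to mitochondrial shape, had 384, 369 and 391 against 734, 905 and 707, a log2 fold change of -1.03 ± 0.11 with a limma adjusted p of 2.6e-05. With the trend removed SLC25A45, SLC25A35, SLC25A30 and SLC25A46 stood at 0.30, -0.15, -0.18 and -0.19, none with a limma adjusted p below 0.05.

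Pairs of related genes were compared within libraries, as the log2 ratio of their normalized counts, because such a ratio does not depend on how a library was scaled. In 9 pairs both genes were listed. SLC25A23/SLC25A24 and SLC25A24/SLC25A25 share a gene, as do SLC25A4/SLC25A5 and SLC25A5/SLC25A6, so the pairs counted below are not independent. The ratio did not overlap between the lines in 6 pairs, each with the smallest exact two-sided permutation p that 3 against 3 libraries allow, 0.1, which is 0.15 after adjustment over the 9 pairs. In the same 6 pairs the fold changes had opposite signs, and neither gene overlapped between the lines. The ratio of such a pair cannot overlap, so this p was fixed by the values of the single genes and is no further evidence. SLC25A23/SLC25A24 differed most, with a log2 ratio of 2.68 ± 0.28 (SD, n = 3) in DU145-TFEB and 0.53 ± 0.13 (SD, n = 3) in DU145-vector, a difference of 2.15. SLC25A33/SLC25A36 followed at 2.02, SLC25A24/SLC25A25 at -1.99, SLC25A39/SLC25A40 at 1.89, TIMM17A/TIMM17B at -1.20 and SLC25A28/SLC25A37 at 0.80.

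The remaining 3 pairs overlapped between the lines. SLC25A5/SLC25A6 differed by -0.11 (exact permutation p = 0.3, 0.34 adjusted), SLC25A4/SLC25A5 by 0.19 (exact permutation p = 0.3, 0.34 adjusted) and SLC25A10/SLC25A11 by -0.07 (exact permutation p = 0.6, 0.6 adjusted). The gene with the higher GC content was the one favoured in DU145-TFEB in 7 of the 9 pairs. Removal of the GC and length trend took the median size of the difference from 1.20 to 0.17 on the log2 scale, and SLC25A33/SLC25A36, at 1.06, was then the largest.

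**Figure D4:**
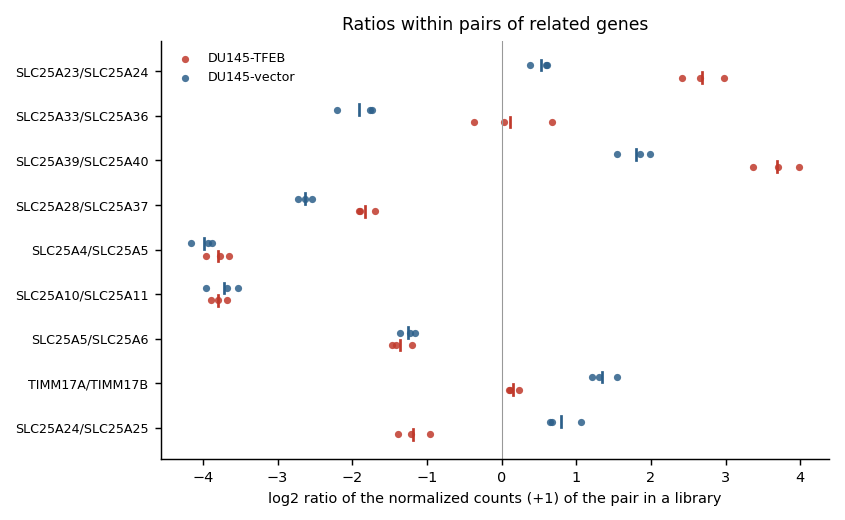
The x axis is the log2 ratio of the normalized counts (+ 1) of the first gene of a pair to the second in each library, with DU145-TFEB in red, DU145-vector in blue and the mean of 3 libraries as a bar. The colours are apart in 6 of 9 rows and overlap for SLC25A4/SLC25A5, SLC25A10/SLC25A11 and SLC25A5/SLC25A6.

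Levels were compared between genes only per kb of the gene length listed in the table. This length need not be that of the main mRNA. It was 8896 bases for SLC25A3, with 1086 coding bases, and 1500 for SLC25A5, with 894. Undivided, SLC25A3 had the higher mean counts, 14944 against 7132 in DU145-TFEB and 11901 against 4881 in DU145-vector. The orders below therefore rest on the listed lengths. SLC25A6 led with 8449 normalized counts per kb in DU145-TFEB and 5394 in DU145-vector, followed by SLC25A5 with 4755 and 3254 and SLC25A3 with 1680 and 1338. The highest TIMM genes were TIMM10 at 1431 and 1033 and TIMM13 at 796 and 481 normalized counts per kb. Of the TOMM genes, TOMM7 went from 750 to 1699 and TOMM22 from 1009 to 1299 normalized counts per kb. TOMM20 went from 1211 to 703, so that TOMM20 was the highest TOMM gene per kb in DU145-vector and TOMM7 the highest in DU145-TFEB. Lowest by the mean of the lines were SLC25A27, with 3.29 in DU145-vector and 13.1 in DU145-TFEB, and TOMM5, with 24.3 and 6.94.

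**Figure D5:**
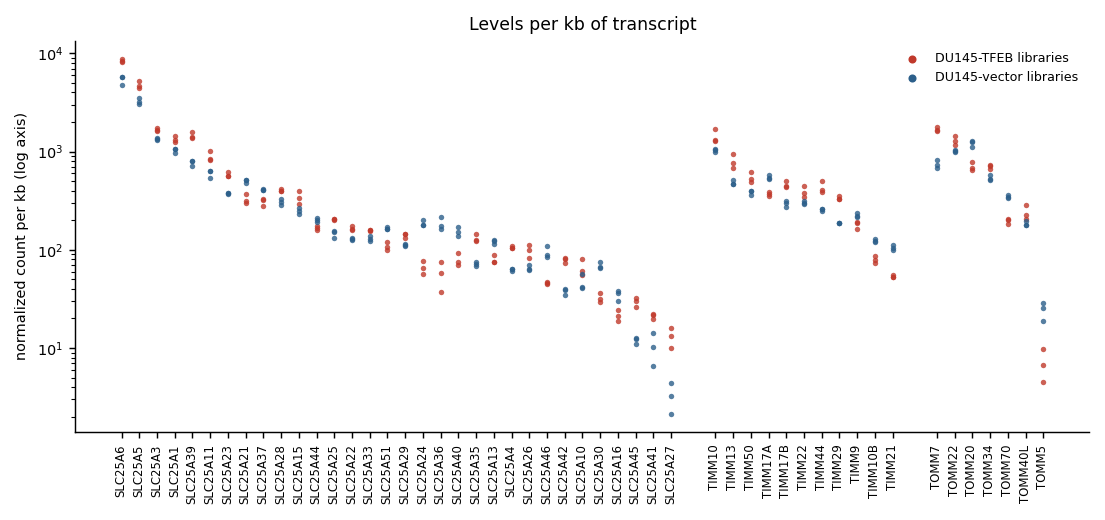
Normalized counts per kb of listed gene length (y axis, log scale) for 50 members (x axis), ordered within each family by the mean of the lines, with a point per library in red for DU145-TFEB and blue for DU145-vector. On this scale, which rests on the listed lengths, SLC25A6 and SLC25A5 lie above all other members in every library, and SLC25A27 has the lowest mean.

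Summed over the 51 members, the normalized counts were 94378 ± 3487 (SD, n = 3) in DU145-TFEB and 77653 ± 1714 (SD, n = 3) in DU145-vector, a ratio of 1.22. The sum was 1.25-fold higher for the SLC25A genes and 1.26-fold higher for the TIMM genes, and for the TOMM genes the ratio was 1.01, with 11621 ± 271 against 11492 ± 407. SLC25A6 and SLC25A3 were the largest terms of the SLC25A sum.

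Other genes of import and inner membrane transport, named by symbol outside the rule, were listed for 22 of 41 symbols. Of these, 11 were higher and 11 were lower in DU145-TFEB, beside 47.6% and 52.4% of all listed genes. Their median log2 fold change was -0.01, beside -0.36 for all listed genes. The lowest were MTX3, a metaxin of the outer membrane (-2.13 ± 0.27), GRPEL2, a nucleotide exchange factor of the import motor (-1.68 ± 0.12), and HSPD1, the matrix chaperonin (-1.24 ± 0.07). HSPD1 went from 9487, 10489 and 9386 normalized counts in DU145-vector to 3968, 4238 and 4202 in DU145-TFEB. The highest were IMMP2L, an inner membrane peptidase (0.63 ± 0.16), MIPEP, the intermediate peptidase (0.57 ± 0.11), and MTX1 (0.56 ± 0.11). All 6 had a limma adjusted p below 0.05, and MTX1 alone among them turned direction with the trend removed, to -0.31. The median of the 22 genes was then 0.04, beside -0.32 for all listed genes, and 16 of 22 lay above the latter.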

How the data were processed

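Libraries of mRNA, 3 from DU145-TFEB and 3 from DU145-vector, were prepared with the NEBNext Ultra kit. The submitters' processing notes list CASAVA 1.8, HISAT2 2.1.0, edgeR and GRCh38, while the paper names DESeq2 for its differential expression. The counting program and its strand setting are not given in the sources used here. The authors deposited a normalized signal, each gene's reads divided by 1 size factor per library, of 0.950 to 1.099 here, and 100.0% of the values came out whole within 0.01 when the reads were recovered. Their group means, log2 fold changes and p-values were not used, except that every listed gene has a deposited adjusted p-value below 0.05. Listed positions equal those of GENCODE 29 for 10542 genes.

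log2(normalized count + 1) was fitted over all 10542 genes with limma 3.58.1 (mean-variance trend, R 4.3.3), and p-values were adjusted by Benjamini-Hochberg over all of them. Fold changes are on this scale, which understates changes of low genes. Ratios within pairs were tested by an exact two-sided permutation test (Python 3.11.15). Alternatives were pseudocounts of 0.5 and 5, a filter of 10 reads in every library, DESeq2 1.42.0 and edgeR 4.0.16 on recovered reads, quantile normalization, removal of the trend with GC content and length by loess (span 0.5), the replicate number as a block, and each library left out.

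Members and lists were chosen with earlier results of these data known. Counts per library are given for members past an absolute log2 fold change of 1, for related pairs of opposite sign, and for the 2 members per family with the highest level per kb. The chi-square per gene between libraries of a line was 2.97 to 27.2, above the level of sampling noise. This does not show that they came from separate cultures. Each library was counted as a replicate with that limit. Of the members, 22 overlap exons of a gene on the other strand and 8 of a gene on the same strand, and their reads may be mixed. Other cell type markers than the keratins were not used here. The values of 1 member, which counts in all totals, are not reported here.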

Additional observations from a re-analysis of the deposited data

How the results depend on the processing

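With GC and length trend removed, the median log2 fold change was -0.20 over the members and -0.19, -0.25 and -0.19 over the SLC25A, TIMM and TOMM genes, and 8 members were higher at an adjusted p below 0.05. At cutoffs of 1 it left 3 higher and 2 lower members, and at 1.5 it left 0 lower. It reversed 26 members, among them SLC25A1 (-0.79), SLC25A10 (-0.62), SLC25A11 (-0.47), SLC25A15 (-0.089), SLC25A16 (0.24), SLC25A21 (0.14), SLC25A22 (-0.70), SLC25A23 (-0.35), SLC25A25 (-0.40), SLC25A28 (-0.65), SLC25A29 (-0.65), SLC25A35 (-0.15), SLC25A39 (-0.086), SLC25A41 (-0.00013), SLC25A6 (-0.51), TIMM13 (-0.46), TIMM17A (0.078), TIMM17B (-0.32), TIMM22 (-0.25), TIMM29 (-0.31), TIMM44 (-0.30), TIMM50 (-0.19), TIMM9 (0.15), TOMM34 (-0.46) and TOMM40L (-0.42), and the ratios SLC25A5/SLC25A6 (0.78), SLC25A28/SLC25A37 (-0.086) and TIMM17A/TIMM17B (0.39). The other 25 members kept their direction in all 14 alternatives, of which the filter of 10 reads gave no value for SLC25A27. TIMM9 was also reversed by quantile normalization (0.14).

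DESeq2 and quantile normalization moved the median of all listed genes from -0.36 to -0.11 and -0.03. With DESeq2 the medians were 0.62 (members), 0.63 (SLC25A), 0.71 (TIMM) and 0.61 (TOMM), with 8 higher and 3 lower members past 1 and 2 and 1 past 1.5. Quantile normalization gave medians of 0.61 (members) and 0.67 (SLC25A), with the same 4 counts, 8, 3, 2 and 1. edgeR gave medians of 0.46 (members) and 0.47 (SLC25A). A filter of 10 reads left 0 members above 1.5.

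Leaving out a library gave 3 to 5 members above 1, 1 to 3 below -1.5, and a TOMM median of 0.23 to 0.41, the lowest without DU145-TFEB replicate 2 and, for members above 1, without DU145-vector replicate 2. The ratio SLC25A10/SLC25A11 was 0.025 without DU145-vector replicate 1. With the replicate block 33 members were higher and 18 lower, as without it. Same-numbered libraries did not deviate together (correlations of -0.018, -0.25 and -0.14). Deviations from the mean of 3 libraries depend on each other, so this cannot decide whether same-numbered libraries were handled together. Causes of these shifts were not tested. Depth limits SLC25A27, SLC25A41 and TOMM5, and all totals cover listed genes only.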
